A study of Mus musculus with 25 samples.

Results

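Armc7, Strap, Lrmda, Chrnb1, Fam49a, Ermard and Treml2 are 7 autosomal mouse genes whose expression in hematopoietic stem cells differed in a step between mutant genotypes, and which lie on other chromosomes than Il1b and Il1r1, the genes deleted in those genotypes. They were chosen by the measured expression values of the VF, Il1bKO and Il1r1KO libraries described next, so the differences among the mutant genotypes below, and how they changed with week, are given as a description of the genes, with no test. Comparisons with WT and between the weeks use these same mutant libraries, so their p-values are not free of the choice. The names were given as a list with no stated cut-off. All 7 were found by symbol among the 13641 genes of the deposited table, each with 1 Ensembl identifier, and all 7 were among the 13630 genes that passed the filter on low counts.

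Long-term stem cells of the bone marrow, gated as lineage-negative, Sca1+, cKit+, CD150+ and CD48−, were taken by cell sorting from mice that had been engrafted with donor marrow of 4 genotypes and given tamoxifen 16 weeks later. The labels write the genotypes as SclCre;GFP (called WT here), SclCre;V617F;GFP (VF), SclCre;V617F;IL-1b-/-GFP (Il1bKO) and SclCre;V617F;IL-1R1-/-GFP (Il1r1KO), so every group is labelled as carrying SclCre, a tamoxifen-inducible Cre driven in stem cells and early progenitors, and GFP. Cells were taken 2 weeks after tamoxifen began from 4 libraries of each genotype, and after 4 weeks from 3 libraries of each of the 3 mutant genotypes. No WT library represents 4 weeks. The weeks were processed as 2 batches, so week and batch cannot be told apart. The knockouts refer to the donor marrow cells, and the genotype of the recipient mice and the age of the animals are not given in the sources used here.

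JAK2 V617F is an activating change in the kinase that relays signals from the erythropoietin, thrombopoietin and granulocyte growth factor receptors, and it drives myeloproliferative neoplasms from the stem cell. IL-1 beta is an inflammatory cytokine that signals through the receptor IL-1R1 to NF-kB, so Il1bKO lacks a ligand made by the mutant blood cells and Il1r1KO lacks the receptor on them. None of the 7 genes is among the textbook components of this pathway. Armc7 encodes an armadillo repeat protein that in human cells works with RBM48 in the minor spliceosome, and Strap encodes a WD40 repeat protein that binds TGF-beta receptors and the SMN complex. Lrmda, a leucine-rich repeat gene, is mutated in a human form of oculocutaneous albinism. Chrnb1 is the beta subunit of the muscle nicotinic acetylcholine receptor, Fam49a (CYRIA) is a Rac1-binding protein related to the WAVE complex inhibitor CYRIB, Ermard is a membrane protein of the endoplasmic reticulum and Treml2 is a cell surface receptor of the TREM-like family.

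The genes lie on 5 chromosomes of mm10. Armc7 (ENSMUSG00000057219, chr11:115475667-115490467, plus strand) and Chrnb1 (ENSMUSG00000041189, chr11:69784036-69795943, minus strand) share chromosome 11. Ermard (ENSMUSG00000036552, chr17:15041208-15090044) and Treml2 (ENSMUSG00000071068, chr17:48299498-48312533) share chromosome 17, both on the plus strand. Strap (ENSMUSG00000030224, chr6:137735078-137751932), Lrmda (ENSMUSG00000063458, chr14:22019712-23056085) and Fam49a (ENSMUSG00000020589, chr12:12262139-12380965) are each alone on their chromosome and on the plus strand. All are protein-coding in GENCODE vM21.

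Promoter windows, from 250 bases before to 50 bases after the gene start in RefSeq (GRCm38.p6), were found for 5 of the 7 genes, Fam49a under its newer symbol Cyria. Those of the 3 genes that differed most from WT in some mutant genotype at 2 weeks and of Chrnb1, which changed with week, are shown 5′ to 3′ in the direction of the gene, with capitals marking matches to the motifs named next.
Armc7 (chr11:115475417-115475716, plus strand): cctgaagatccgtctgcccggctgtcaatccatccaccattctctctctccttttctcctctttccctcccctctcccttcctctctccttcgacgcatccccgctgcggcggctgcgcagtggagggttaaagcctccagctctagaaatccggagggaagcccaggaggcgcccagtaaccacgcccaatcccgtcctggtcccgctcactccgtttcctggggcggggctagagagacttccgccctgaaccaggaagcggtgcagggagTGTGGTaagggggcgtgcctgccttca
Lrmda (chr14:22019462-22019761, plus strand): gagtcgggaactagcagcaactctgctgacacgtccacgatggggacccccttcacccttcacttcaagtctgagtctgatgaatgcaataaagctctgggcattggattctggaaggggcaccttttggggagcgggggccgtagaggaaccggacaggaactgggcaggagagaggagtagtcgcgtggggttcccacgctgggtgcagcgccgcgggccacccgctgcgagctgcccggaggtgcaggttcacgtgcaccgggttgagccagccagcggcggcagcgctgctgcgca
Fam49a (chr12:12261927-12262226, plus strand): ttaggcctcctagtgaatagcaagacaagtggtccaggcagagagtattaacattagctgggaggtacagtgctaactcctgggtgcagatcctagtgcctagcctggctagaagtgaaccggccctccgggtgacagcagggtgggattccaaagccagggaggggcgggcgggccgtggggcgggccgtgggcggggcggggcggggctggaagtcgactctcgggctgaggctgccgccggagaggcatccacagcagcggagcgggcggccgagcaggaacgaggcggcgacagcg
Chrnb1 (chr11:69795888-69796187, minus strand): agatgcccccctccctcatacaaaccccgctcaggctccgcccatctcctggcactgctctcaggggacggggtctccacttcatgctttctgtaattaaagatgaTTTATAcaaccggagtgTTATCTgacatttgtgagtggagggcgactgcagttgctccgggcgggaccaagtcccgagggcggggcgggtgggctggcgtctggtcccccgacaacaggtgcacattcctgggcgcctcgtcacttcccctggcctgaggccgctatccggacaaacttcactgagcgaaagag
The motifs, searched on both strands, were the STAT motif TTCNNNGAA, the NF-kB motif of GGG followed after 2 bases by TTTCC, the ETS motif CCGGAA, the RUNX motif TGTGGT, the GATA factor motif AGATAA and the TATA box motif TATAAA. The Armc7 window held a RUNX match beginning at base 274, position 24 after the gene start, and 16.8% of 32817 mouse promoter windows held at least 1. In the Chrnb1 window a TATA match began at base 107 (position −144 from the start) and a GATA match at base 124 (−127), both on the opposite strand. These motifs were found in 13.6% and 11.2% of all windows. Strap, whose window is not shown, held an ETS match at base 256, position 6 after the start, against 14.9% of windows. None of the 5 windows held the STAT letters, present in 8.29% of windows, or the NF-kB letters, present in 1.63%, and those of Lrmda and Fam49a held none of the 6 motifs. All 5 windows were rich in CpG, with 17 to 30 CpG against a median of 7, and 59.7% to 66.3% GC against a median of 52.7%.

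The libraries held 21990959 to 40178173 gene counts, and levels are given as CPM, gene counts relative to the TMM-scaled total of the library. Il1bKO_4w 5 stood apart, with the most counts, the fewest genes detected (11871) and a median correlation of 0.849 with the other libraries, whose own medians were 0.914 to 0.951. Il1bKO_4w 5, VF_4w 6 and Il1r1KO_4w 5 each had the lowest such correlation of their group, and some results are also given without these 3. Il1b had 0 reads in every Il1bKO library, beside 0 to 14.1 CPM in VF and 0 to 0.139 CPM in WT. Il1r1 reads were present in Il1r1KO at 9.79 to 31.1 CPM, so a count over the whole gene does not check the deleted part. CreERT2 reads numbered 1 in all 4 WT libraries together, against 195 to 828 CPM in the mutant libraries, although the WT label includes SclCre. The WT libraries also differed from each other in pEGFP, at 998, 518, 3.03 and 49.3 CPM in WT_2w 1 to 4. Some comparisons with WT are therefore also given without WT_2w 3 and WT_2w 4. All 9 stem cell markers were present in every library, Slamf1 (CD150) at 58.4 to 170.2 CPM, and Cd48, which the sort excluded, at 0.606 to 17.1 CPM. Where levels differ between bulk samples, fewer cells of a type and less RNA per cell cannot be told apart. The labels do not link libraries to named animals, and p-values measure the spread between these libraries.

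**Figure D1:**
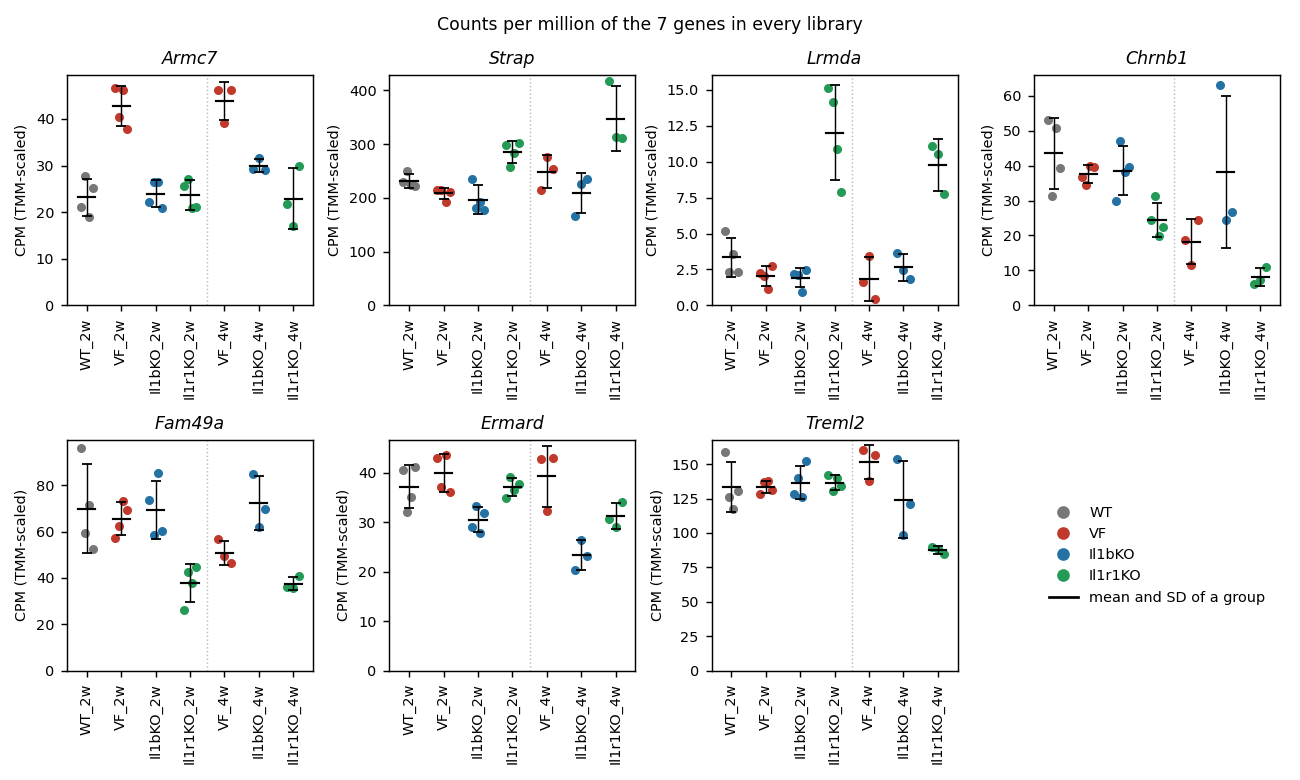
Level of each of the 7 genes (y axis, TMM-scaled CPM from 0) in every library, by group of genotype and week (x axis), with each point 1 library and black bars giving the mean and SD of a group. Armc7 was high in the 7 VF libraries at 37.9 to 46.7 CPM, Lrmda was high in the 7 Il1r1KO libraries at 7.72 to 15.2 CPM, and Treml2 was low in the 3 Il1r1KO libraries of 4 weeks at 84.6 to 89.7 CPM.

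Armc7 was high in VF and, at 2 weeks, near the WT level in both knockouts. WT libraries held 21.1, 27.8, 19.0 and 25.1 CPM. VF libraries held 46.7, 40.4, 46.2 and 37.9 CPM at 2 weeks and 46.3, 39.1 and 46.1 CPM at 4 weeks. Every VF library was above every library of the other 3 genotypes. Il1bKO stood at 22.2, 26.4, 26.5 and 20.8 CPM at 2 weeks and at 29.2, 31.5 and 29.0 CPM at 4 weeks. The levels of 4 weeks were above every WT library. Il1r1KO stood at 25.6, 27.1, 20.9 and 21.1 CPM at 2 weeks and at 21.7, 17.1 and 30.0 CPM at 4 weeks. In the edgeR fit VF was 1.84-fold WT at 2 weeks (log2 0.88, SE 0.17, adjusted p = 0.195 by Benjamini-Hochberg), higher in 4 of 4 libraries but not past the threshold of 0.05. Both limma voom (adjusted p = 0.0265) and DESeq2 (adjusted p = 0.00112) called it, 2 of 15 alternatives, over which the adjusted p ran from 0.00112 to 1. Without WT_2w 3 and WT_2w 4 the difference was log2 0.81 in edgeR (adjusted p = 1). Il1bKO (log2 0.046, SE 0.17) and Il1r1KO (log2 0.026, SE 0.17) lay close to WT at 2 weeks, with both adjusted p = 1. As the values that chose the gene, the steps from VF over both weeks were log2 −0.69, SE 0.13 to Il1bKO and log2 −0.90, SE 0.13 to Il1r1KO. Within-group variation of Armc7 was 13.3% (coefficient of variation), under the 21.2% median of all genes tested. Armc7 shares 48 of its 3069 exonic bases with Nt5c on the opposite strand, whose reads cannot be told apart there because libraries were unstranded. Nt5c itself differed less, by log2 −0.25 (SE 0.12) from VF to Il1bKO and −0.15 (SE 0.12) to Il1r1KO.

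Lrmda showed the largest step of the 7 genes on the log2 scale. It was low in 3 genotypes, with 5.17, 2.35, 3.57 and 2.31 CPM in WT. VF held 2.28, 2.06, 1.13 and 2.76 CPM at 2 weeks and 1.59, 3.47 and 0.468 CPM at 4 weeks. The Il1bKO levels were of the same order, 2.16, 2.14, 0.938 and 2.43 CPM and then 3.64, 2.47 and 1.83 CPM. Il1r1KO alone was high, and its lowest library exceeded the highest of any other genotype. Those levels were 15.2, 14.1, 10.9 and 7.90 CPM at 2 weeks and 11.1, 10.5 and 7.72 CPM at 4 weeks. Against WT at 2 weeks Il1r1KO was 3.59-fold higher (log2 1.84, SE 0.50, adjusted p = 0.339, edgeR), 4 of 4 libraries above WT and not past the threshold. The same difference was called by limma voom (adjusted p = 0.0418) and by DESeq2 (adjusted p = 0.0332), and without WT_2w 3 and WT_2w 4 it was log2 1.67 (adjusted p = 0.979, edgeR). Over 15 alternatives the adjusted p ran from 0.0332 to 0.979, and 2 passed. VF (log2 −0.70, SE 0.49) and Il1bKO (log2 −0.80, SE 0.49) were below WT on average, neither called (adjusted p = 1 for both). The steps that chose it were log2 2.48, SE 0.39 from VF and log2 2.26, SE 0.39 from Il1bKO. Libraries of a group varied by 35.9%, more than the median gene.

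Fam49a was lowest in Il1r1KO, and in VF it was lower at 4 weeks than at 2 weeks (log2 −0.36, SE 0.20). WT held 96.1, 59.2, 71.4 and 52.5 CPM. In VF it stood at 57.3, 62.2, 73.1 and 69.3 CPM and, after 4 weeks, at 56.7, 49.3 and 46.6 CPM. In Il1bKO the levels were 73.5, 58.5, 85.1 and 60.2 CPM and then 84.9, 62.0 and 69.8 CPM. Il1r1KO libraries held 26.0, 42.7, 37.9 and 44.6 CPM at 2 weeks and 36.2, 35.7 and 40.7 CPM at 4 weeks. No Il1r1KO library reached the lowest library of any other genotype. Relative to WT the level at 2 weeks was 0.541-fold (log2 −0.89, SE 0.18, adjusted p = 0.0788, edgeR), the lowest adjusted p of the 7 genes against WT in that fit. The unadjusted p in edgeR was lower for Armc7 in VF (2.87e-05) than for Fam49a in Il1r1KO (6.67e-05). The adjusted p of Fam49a passed in 2 of 15 alternatives, at 0.0238 without WT_2w 4 and at 0.00341 in DESeq2. It did not pass in limma voom (adjusted p = 0.055), with the compared groups alone (0.311) or without WT_2w 3 and WT_2w 4 together (0.0959), and was at most 0.398, without WT_2w 1. VF (log2 −0.092, SE 0.18) and Il1bKO (log2 −0.01, SE 0.18) did not differ detectably from WT (adjusted p = 1 for both). Its steps were log2 −0.62, SE 0.14 from VF and log2 −0.91, SE 0.14 from Il1bKO. The step from VF was log2 −0.79, SE 0.18 at 2 weeks and log2 −0.44, SE 0.21 at 4 weeks. Fam49a shares 213 of 12596 exonic bases with the antisense gene 4921511I17Rik, which is not analysed here.

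Strap was highest in Il1r1KO. WT stood at 229, 249, 224 and 222 CPM. VF stood at 214, 215, 193 and 212 CPM at 2 weeks and 215, 276 and 254 CPM at 4 weeks, and the 4 VF libraries of 2 weeks were all below WT. Il1bKO was lowest on average, with 235, 181, 193 and 177 CPM and 165, 226 and 235 CPM. In Il1r1KO the levels were 298, 257, 283 and 302 CPM at 2 weeks and 417, 313 and 311 CPM at 4 weeks. These were above all WT and Il1bKO libraries and overlapped with 1 VF library, VF_4w 6. At 2 weeks Il1r1KO differed from WT by 1.23-fold (log2 0.30, SE 0.12, adjusted p = 0.733, edgeR), which was not called. That difference was log2 0.25 without WT_2w 3 and WT_2w 4. VF lay log2 −0.15, SE 0.12 and Il1bKO log2 −0.23, SE 0.12 from WT, each with adjusted p = 1. The steps were log2 0.47, SE 0.09 from VF to Il1r1KO and log2 0.64, SE 0.09 from Il1bKO to Il1r1KO.

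Chrnb1 combined a genotype step with a decline between the weeks, and was the only one of the 7 past the threshold in a tested comparison of the edgeR fit. WT held 53.0, 31.3, 50.6 and 39.4 CPM. In VF the level was 36.8, 34.4, 39.9 and 39.6 CPM at 2 weeks and 18.8, 11.6 and 24.3 CPM at 4 weeks. Il1r1KO went from 24.4, 31.1, 19.9 and 22.4 CPM to 6.20, 7.26 and 11.0 CPM. In both genotypes every library of 4 weeks was below every library of 2 weeks. Il1bKO held 29.8, 46.9, 38.0 and 39.5 CPM at 2 weeks and 63.2, 24.3 and 26.8 CPM at 4 weeks, where the high value belonged to Il1bKO_4w 5. Without that library the mean of Il1bKO at 4 weeks was 25.5 CPM in place of 38.1 CPM. Over the 3 mutant genotypes Chrnb1 fell between 2 and 4 weeks (log2 −0.88, SE 0.18, adjusted p = 0.00321, edgeR), to 0.542-fold. The low Il1r1KO libraries of 4 weeks also chose the gene, so this call is not free of the choice. Within genotypes the change was log2 −1.05, SE 0.30 in VF, log2 −0.017, SE 0.30 in Il1bKO and log2 −1.58, SE 0.31 in Il1r1KO. Without VF_4w 6, Il1bKO_4w 5 and Il1r1KO_4w 5 it was log2 −0.94 over the genotypes (adjusted p = 0.000887). The Il1bKO step from VF differed between the weeks by log2 1.03, SE 0.42, and by log2 0.21 without those 3 libraries. Levels of cell markers in the mutant libraries also moved between the weeks. Pooled over the 3 mutant genotypes, the ranges of both weeks overlapped in each of these. Cd48 was at 0.606 to 5.51 CPM at 2 weeks and 4.33 to 17.1 CPM at 4 weeks, and Nkg7, the only measured gene of 5 on the T and NK cell list, at 18.4 to 49.9 and 18.9 to 119 CPM. Over 5 erythroid genes the summed level was 74.2 to 169 CPM at 2 weeks and 101 to 366 CPM at 4 weeks, and over 9 stem cell markers 2087 to 2832 and 1398 to 2216 CPM. Within genotypes some of these ranges stood apart. The stem cell sum was 2210 to 2832 and then 1902 to 2072 CPM in VF. In Il1r1KO it was 2087 to 2210 and then 1398 to 1844 CPM, and it overlapped in Il1bKO. Cd48 did not overlap between the weeks in VF or Il1bKO, Nkg7 in Il1r1KO, or the erythroid sum in Il1bKO. The part of these markers in the fall of Chrnb1 was not tested. At 2 weeks Il1r1KO was below WT in 4 of 4 libraries at 0.561-fold, which did not pass (log2 −0.83, SE 0.28, adjusted p = 0.586, edgeR). That difference was log2 −0.79 without WT_2w 3 and WT_2w 4. The steps of Chrnb1 to Il1r1KO were log2 −0.89, SE 0.21 from VF and log2 −1.44, SE 0.21 from Il1bKO. The latter was log2 −1.07 without the 3 libraries of 4 weeks. The step between VF and Il1bKO moved from log2 0.55 to 0.14 when they were left out. Of 14 listed receptor subunits and muscle synapse genes, the table held 2, Chrnb2 (mean 32.3 CPM) and Rapsn (mean 4.91 CPM), neither of them called in any comparison, and of 5 skeletal muscle marker genes it held only Acta1, at 0.233 to 1.51 CPM.

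Ermard was low in Il1bKO, and the gap was wider at 4 weeks. WT libraries read 40.5, 32.0, 35.1 and 41.1 CPM. Those of VF read 43.0, 37.1, 43.6 and 36.1 CPM at 2 weeks and 42.7, 32.1 and 42.9 CPM at 4 weeks. Il1bKO read 29.0, 33.3, 27.8 and 31.9 CPM and 20.4, 26.5 and 23.1 CPM, with its highest library of 2 weeks just above the lowest VF and WT libraries. Il1r1KO lay within the WT range at 2 weeks, with 34.8, 39.1, 36.4 and 37.7 CPM, and partly below it at 4 weeks, with 30.6, 28.9 and 34.1 CPM. Against WT at 2 weeks Il1bKO stood at 0.820-fold (log2 −0.29, SE 0.13, adjusted p = 1, edgeR), not a call. VF (log2 0.10, SE 0.13) and Il1r1KO (log2 −0.006, SE 0.13) were near WT. The Il1bKO step from VF was log2 −0.57, SE 0.10 over both weeks, made of log2 −0.39, SE 0.13 at 2 weeks and log2 −0.75, SE 0.15 at 4 weeks. Ermard starts beside a cluster of genes treated here as near-identical, though their sequences were not compared. It shares 193 of its 7247 exonic bases with Tcte3 and 97 with Gm3448 on the opposite strand, so reads in these stretches are uncertain. How far Ermard and the genes of the cluster share reads elsewhere was not tested.

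Genes next to Ermard were low in the same genotype. Of 202 tested genes within 1 Mb of any of the 7, only Gm3435, 31.0 kb upstream of Ermard (chr17:15010176-15022449), passed the threshold in a comparison between genotypes, that of Il1bKO with VF, in which 0.139% of all genes did. That contrast chose Ermard, so the difference of Gm3435 in it (log2 −0.79, SE 0.12) is given as a description. In VF the levels of Gm3435 were 39.6, 36.4, 44.8 and 39.8 CPM and 41.4, 34.6 and 49.3 CPM, and in Il1bKO 22.0, 24.7, 22.6 and 26.7 CPM and 19.1, 25.2 and 25.7 CPM, with no overlap. WT held 42.8, 32.4, 39.6 and 43.4 CPM, above every Il1bKO library as well, yet the difference at 2 weeks was not called (log2 −0.72, SE 0.15, adjusted p = 0.12, edgeR). Other genes of the cluster, chosen for this description after their values were seen, pointed the same way from VF to Il1bKO without being called. Their differences were log2 −1.29 (SE 0.32) for Gm3448, −1.26 (SE 0.46) for Tcte3, −1.66 (SE 0.79) for Gm3417 and −0.42 (SE 0.18) for 9030025P20Rik. Tcte3, Gm3448 and Gm3417 were weakly counted, at means of 0.634, 2.07 and 0.334 CPM in Il1bKO. Beyond the cluster, Phf10, 79.9 kb away, differed by log2 0.30 (SE 0.14) and Wdr27, 98.0 kb away, by 0.083 (SE 0.37), neither called.

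**Figure D2:**
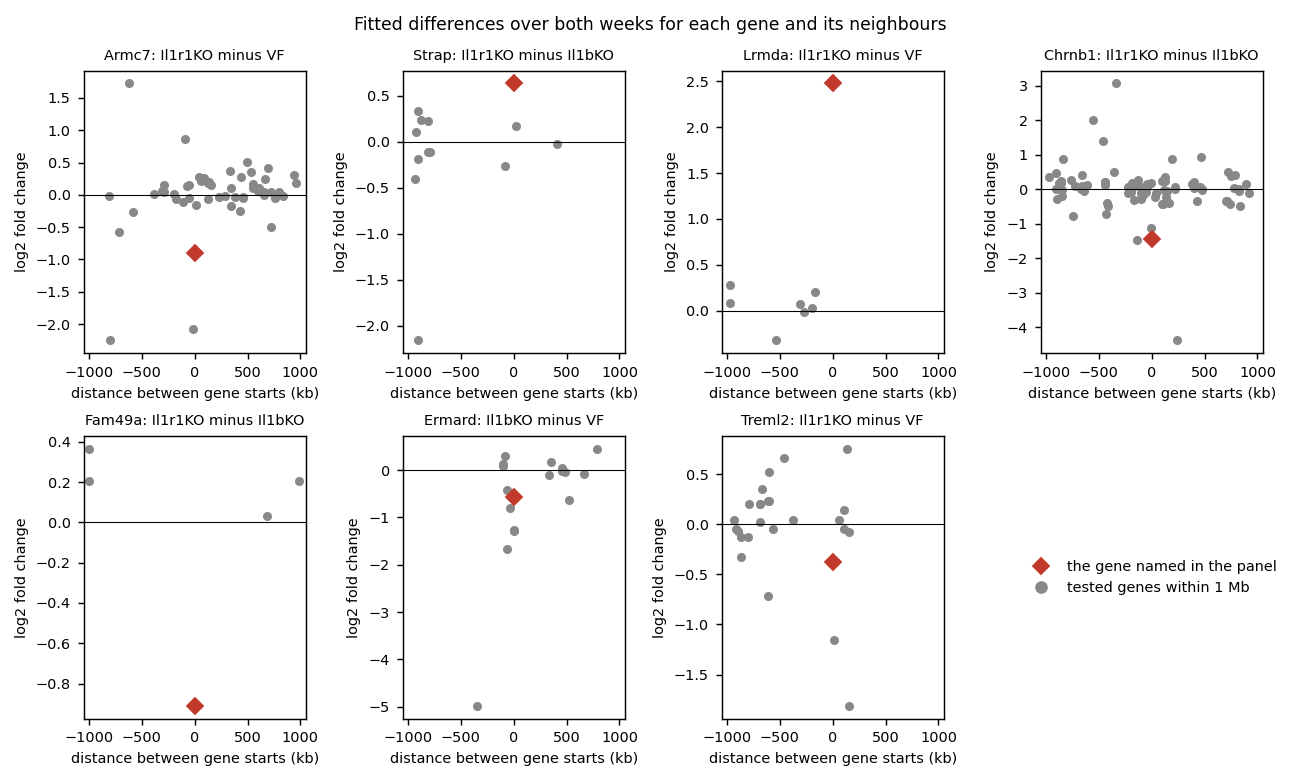
Fitted log2 fold change over both weeks (y axis) of each gene and of the tested genes within 1 Mb, against the distance between gene starts in kb (x axis), 1 panel a gene and the comparison named above it. Lrmda at 2.48 and Fam49a at −0.91 stood outside the range of their 7 and 4 neighbours, −0.32 to 0.29 and 0.03 to 0.37. Strap at 0.64 was above the highest of its 12 (0.33). Armc7, Chrnb1, Ermard and Treml2 lay within the range of theirs, and the genes nearest Ermard were also below 0. Each panel shows a comparison that chose its gene, so nothing is read from the distance of a gene from its neighbours.

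Treml2 had similar levels in all genotypes at 2 weeks and was low in Il1r1KO at 4 weeks. WT held 159, 126, 117 and 130.5 CPM. VF held 128, 137, 138 and 131 CPM at 2 weeks and 160.5, 138 and 156 CPM at 4 weeks. Il1bKO had 128, 139.8, 126 and 152 CPM and then 154, 98.4 and 121 CPM, the lowest of these in Il1bKO_4w 6. Il1r1KO stood with the rest at 2 weeks, at 142, 131, 139.9 and 134 CPM. At 4 weeks its libraries held 89.7, 88.6 and 84.6 CPM, below all 22 other libraries. None of the mutant genotypes differed detectably from WT at 2 weeks, with differences of log2 0.004 to 0.038 (SE 0.11 each, adjusted p = 1, edgeR). The Il1r1KO step from VF was log2 0.034, SE 0.11 at 2 weeks and log2 −0.79, SE 0.13 at 4 weeks. The step changed between the weeks by log2 −0.82, SE 0.17, a value that rests on the libraries that chose the gene and is not tested. Stem cell markers were also lowest in the Il1r1KO libraries of 4 weeks, with a summed level over 9 markers of 1398 to 1844 CPM against 2087 to 2210 CPM in Il1r1KO at 2 weeks and 1902 to 2072 CPM in VF at 4 weeks. Summed megakaryocyte markers were 536.8 to 796 CPM there, against 252 to 567 and 372 to 1936 CPM in those 2 groups. The part of either in the levels of Treml2 was not tested.

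**Figure D3:**
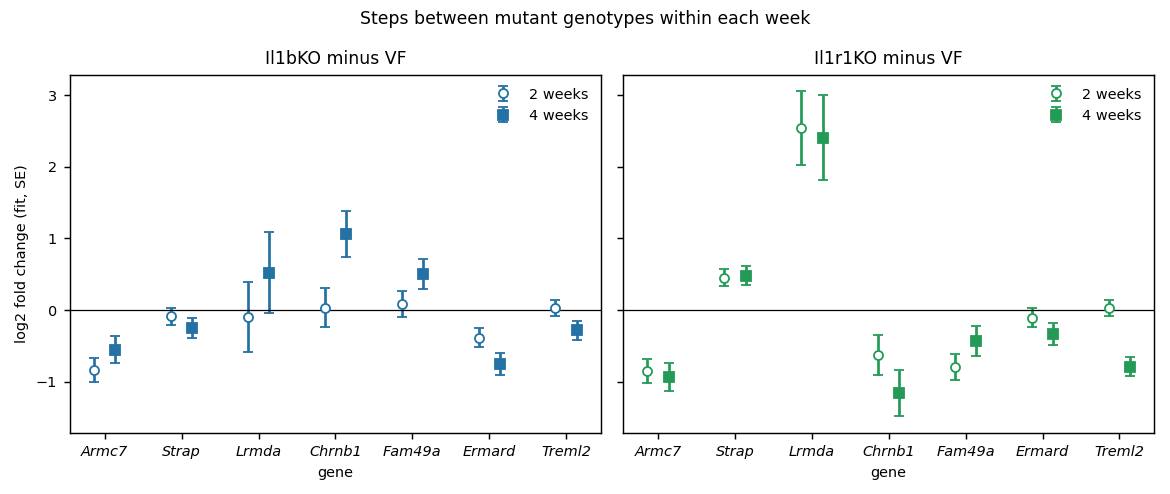
Log2 fold change of Il1bKO (left) and Il1r1KO (right) from VF (y axis, with SE of the fit) for each gene (x axis), open circles for 2 weeks and filled squares for 4 weeks. Armc7, Strap, Lrmda, Chrnb1, Fam49a and Ermard kept the direction of the Il1r1KO step in both weeks, with Ermard at −0.11, SE 0.13 at 2 weeks. Treml2 went from 0.034 at 2 weeks to −0.79 at 4 weeks.

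The comparisons with WT share the mutant libraries with the steps that chose the 7 genes, so a distance from WT that differs by genotype is fixed by the choice. Levels in VF at 2 weeks did not overlap with WT for 2 of 7 genes, Armc7 above and Strap below, where 3.67% of all genes did not overlap. In Il1bKO 0 of 7 genes stood clear of WT (background 3.94%), and in Il1r1KO 4 of 7 did, Strap and Lrmda above, Chrnb1 and Fam49a below (background 4.78%). Marker lists also stood clear of WT at 2 weeks. Over the 9 stem cell markers WT summed to 2405 to 3439 CPM and Il1r1KO to 2087 to 2210 CPM, and over the 6 megakaryocyte markers to 134 to 216 and 252 to 567 CPM. In VF the sum over 8 neutrophil and monocyte genes was 70.9 to 119.7 CPM, against 12.7 to 48.9 CPM in WT. Over all libraries Mpo and Csf1r had the highest medians of these genes, 16.66 and 14.85 CPM, beside 1.04 CPM for S100a8 and 0.867 CPM for S100a9. Nkg7, the only measured gene of the T and NK cell list, was at 18.4 to 49.9 CPM in the mutant libraries of 2 weeks and at 5.57 to 17.9 CPM in WT. The part of these markers in the differences from WT was not tested. By adjusted p in edgeR 0 of 7 passed in each of the 3 comparisons with WT, in which 0.00734%, 0.044% and 0.0587% of all genes were called for VF, Il1bKO and Il1r1KO. At an unadjusted p under 0.05, 1, 1 and 4 of the 7 passed, beside 2.27%, 3.1% and 5.98% of all genes. DESeq2 called 1, 0 and 2 of the 7, beside 0.0588%, 0.176% and 0.338% of all genes. In limma voom 1, 0 and 1 were called, beside 0.0147%, 0.0954% and 0.176% of all genes. The median difference of the 7 genes from WT was log2 −0.092, −0.18 and 0.026, beside medians over all genes of 0.002, 0.004 and −0.001.

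**Figure D4:**
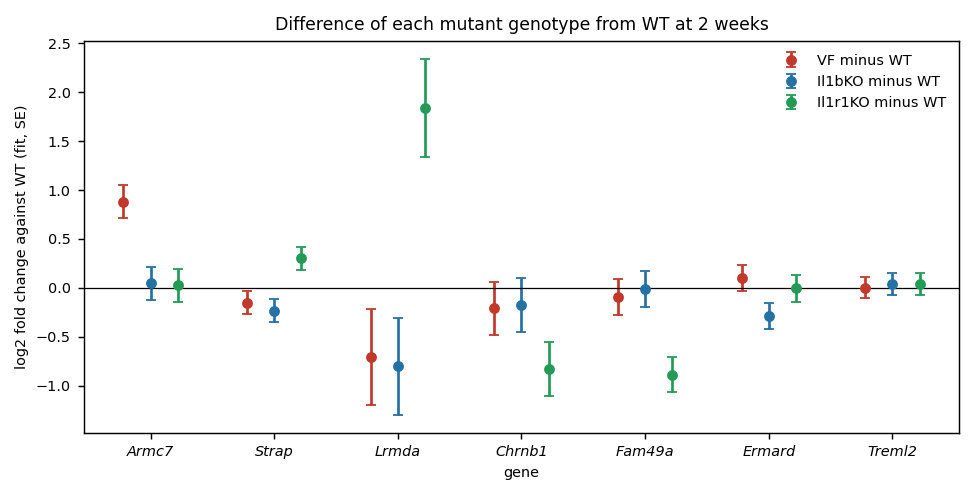
Log2 fold change of each mutant genotype from WT at 2 weeks (y axis, with SE of the fit) for each gene (x axis). Armc7 was at 0.88 in VF and near 0 in both knockouts, and Lrmda (1.84), Chrnb1 (−0.83) and Fam49a (−0.89) were farthest from 0 in Il1r1KO, none past the adjusted threshold in edgeR.

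Between mutant genotypes, with 7 libraries each, Armc7 alone did not overlap between Il1bKO and VF (background 0.169% of genes). Armc7, Lrmda and Fam49a did not overlap between Il1r1KO and VF (0.271%), nor Strap, Lrmda and Fam49a between Il1r1KO and Il1bKO (0.198%). Since these contrasts chose the genes, nothing is read from those counts.

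Over the 3 mutant genotypes, 1 of 7 genes (Chrnb1) was called between 2 and 4 weeks, where 14.4% of all genes were. At an unadjusted p under 0.05, 4 of 7 passed, beside 28.9% of all genes. Strap (log2 0.21, SE 0.073, adjusted p = 0.0598), Treml2 (log2 −0.20, SE 0.07, adjusted p = 0.06) and Ermard (log2 −0.22, SE 0.083, adjusted p = 0.0803) were outside the threshold in edgeR. DESeq2, which called 18.0% of all genes, called all 3, and limma voom, which called 18.5%, called Strap and Treml2 but not Ermard (adjusted p = 0.146). Over 27 alternatives 7 passed for Strap (adjusted p = 0.00929 to 0.151), 4 for Treml2 (0.00416 to 0.13) and 1 for Ermard (0.0405 to 0.281). Without Il1bKO_4w 5 edgeR called Strap (log2 0.26, adjusted p = 0.0133) and Treml2 (log2 −0.26, adjusted p = 0.00768). Strap was also called when VF_4w 5, Il1bKO_2w 1, Il1r1KO_4w 6 or Il1r1KO_4w 7 alone was left out (adjusted p = 0.0322, 0.0268, 0.0456 and 0.0403, edgeR). Within genotypes Treml2 changed by log2 0.18, SE 0.12 in VF, −0.14, SE 0.12 in Il1bKO and −0.64, SE 0.12 in Il1r1KO. Ermard changed by log2 −0.026, SE 0.144 in VF, −0.39, SE 0.145 in Il1bKO and −0.25, SE 0.145 in Il1r1KO. The low libraries of 4 weeks, Il1r1KO for Treml2 and Chrnb1 and Il1bKO for Ermard, also chose these genes, so their week calls are not free of the choice. Armc7 (log2 0.10, SE 0.10), Fam49a (log2 −0.10, SE 0.11) and Lrmda (log2 0.003, SE 0.29) showed no detectable change.

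Calls between genotypes were rare over all genes, at 0.00734%, 0.044% and 0.0587% for the mutants against WT and 0.139%, 0.169% and 0.176% between mutants, so that a list of this size is read against nearly 0 calls. Of 14 minor spliceosome genes listed for Armc7, all were measured and 0 were called between genotypes, and Rbm48, the direct partner, stood at log2 −0.051 (SE 0.37) in VF against WT. Of 11 SMN complex and TGF-beta receptor genes listed for Strap, of 10 genes of the Rab32 and Rab38 pathway of pigment organelles listed for Lrmda, and of 12 measured Rac and WAVE genes listed for Fam49a, 0 were called between genotypes. Fam49b, the paralog of Fam49a, held 126.3 CPM on average and differed by log2 −0.014 (SE 0.090) between Il1r1KO and VF. For Treml2 4 of 9 listed genes were measured (Nfam1, Treml1, Cd276 and Tyrobp), and 0 were called. Median log2 differences between genotypes for these lists and for all genes lay close together in the larger lists, for example −0.001 against 0.005 for the minor spliceosome and 0.079 against 0.005 for the Strap partners in Il1r1KO minus VF.

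Between the weeks 8 partners were called. Measured partners numbered 14 for Armc7, 11 for Strap, 10 for Lrmda, 12 for Fam49a, 2 for Chrnb1 and 4 for Treml2. Snrnp25 (log2 0.56, SE 0.10, adjusted p = 0.00189) and Snrnp35 (0.56, SE 0.18, 0.0415), proteins of the U11/U12 particle, were higher at 4 weeks in edgeR. Among the Strap partners Smn1 (0.36, SE 0.090, 0.0116), Gemin2 (0.27, SE 0.082, 0.0323) and Gemin6 (0.38, SE 0.13, 0.0444) of the SMN complex were higher, and Smad7 (−0.51, SE 0.15, 0.0265), an inhibitor of TGF-beta signalling, was lower. Ap3b1 (−0.28, SE 0.095, 0.0487), a subunit of the AP-3 sorting adaptor, was lower, and the WAVE subunit Brk1 (0.28, SE 0.078, 0.02) was higher. These 8 calls fall in a comparison where 14.4% of all genes were called, so nothing is read from them about the partners. Of the 202 neighbours of the 7 genes 41, or 20.3%, were called between the weeks.

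Genes with the most similar profile were sought by the root mean square difference of standardised log2 CPM over the 25 libraries, where 0 is an identical profile and the nearest gene of a typical gene lies at 0.584. These values describe the libraries, which share genotype, week and batch. Ermard lay nearest to its neighbours Gm3435 (0.493) and Gm3448 (0.567). Chrnb1 lay nearest to Zmym6 (0.425), and Strap to Chchd4 (0.484) and Rexo2 (0.493), mitochondrial proteins. Treml2 was closest to Fnbp1l (0.586) and Ypel5 (0.601), and Fam49a to Trak2 (0.690) and Morc3 (0.693). Armc7 and Lrmda had no close match, the nearest being Rasa4 (0.777) and Ptdss2 (0.822), where 0.794 is the 95th percentile over genes. Among themselves Chrnb1 and Fam49a were the closest pair (0.782) and Strap and Chrnb1 the farthest (1.92).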

How the data were processed

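Gene-level read counts of 25 libraries were used as deposited by the authors (13641 genes and 4 construct sequences). Per the labels' protocols, RNA of sorted cells was extracted with PicoPure and unstranded libraries were made with SMART-Seq v4. Listed in the submitters' processing notes are featureCounts (no version), STAR 2.7.10a, FastQC 0.11.5 and R 4.2.2, with the build mm10. Positions and symbols came from GENCODE vM21 (13623 genes matched) and promoter sequences from RefSeq.

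The main test of the counts was the robust quasi-likelihood test of edgeR 4.0.16, run in R 4.3.3 after TMM scaling and filterByExpr, as 1 fit of 7 groups of genotype and week, with Benjamini-Hochberg adjustment over 13630 genes at 0.05. Constructs were left out of library sizes and tests. Differences over both weeks are means of the 2 within-week differences. CPM and SD are over libraries, and log2 fold changes and SE come from the fit. Changes of the steps between weeks are not tested for the 7 genes, because the libraries in them chose the genes. Fits shared WT and VF libraries between comparisons.

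The 7 genes, the partner and marker lists and the tests were chosen with earlier results of these data known. Named in addition were partners called in any comparison or of special interest, called neighbours within 1 Mb and the 2 genes of nearest profile (among genes of mean log2 CPM of at least 1, prior count 2), of which 1 is not reported here. Marker lists covered stem cells, skeletal muscle, megakaryocytes and other blood and stromal cells. Of the other lists, summed CPM over all libraries was 11.9 to 230.2 for neutrophils and monocytes (8 of 9 genes measured), 18.5 to 54.5 for B cells (2 of 5), 5.57 to 119 for T and NK cells (1 of 5), 63.4 to 366 for erythroid cells (5 of 5), 0.548 to 70.7 for mast cells and basophils (4 of 4) and 52.1 to 112 for endothelium and stroma (2 of 5). Alternatives were RLE factors, no filter, a replicate block, the compared groups alone, limma 3.58.1 voom, DESeq2 1.42.0 and each library left out. Fits without WT_2w 3 and 4, and without VF_4w 6, Il1bKO_4w 5 and Il1r1KO_4w 5, were added after seeing the data. The pipeline was tested on simulated data.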

Additional observations from a re-analysis of the deposited data

Results flagged for a closer look

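Strap in VF_2w 3 stood at 192.8 CPM, apart from the other VF libraries of 2 weeks at 212 to 215 CPM, by more of the group's range than Dixon's criterion allows. It was the single flag among 28 sets of 4 libraries examined, and chance flags about 1 in 20.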

How the results depend on the processing

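Of 1239 values of the 7 genes, the steps included, under the alternative settings, 1159 were alike, 58 changed sign, 21 passed the threshold only under the alternative and 1, Chrnb1 between Il1bKO and VF without VF_4w 6, Il1bKO_4w 5 and Il1r1KO_4w 5, moved from 0.55 to 0.14. A tested value was taken as alike when its sign and call held, whatever its size, and a step when it moved by less than the SD between libraries (0.404 for Chrnb1). By that measure Chrnb1 was alike at 0.17 in voom in the same step, and at 0.21 in place of 1.03 in the Il1bKO step by week without the 3 libraries. Of the 21, 3 concern the Treml2 step by week, which rests on the libraries that chose the gene and is not read as a call. Changes of sign arose mostly in differences near 0, and no cause was tested. The samples of one number did not deviate together: over 33 same-numbered pairs r was −0.148 to 0.0799, and 3 of 25 libraries correlated best with their own number, so the numbers were not taken as pairs. With the replicate number as a block, calls numbered 3 for Il1bKO and 5 for Il1r1KO against WT and 0 for the Il1bKO step by week, and Lrmda was 0.11 in the Il1r1KO step by week. Fam49a in Il1r1KO against WT had an adjusted p of 0.173 with the block (edgeR). Numbers are not shared between weeks, so the week difference had no blocked fit.

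Genes called against WT (1 for VF, 6 for Il1bKO, 8 for Il1r1KO in the edgeR fit) became 3 for VF and 3 for Il1r1KO with the compared groups alone, 2, 13 and 24 in limma voom, and 8, 24 and 46 in DESeq2. For the step by week (2 for Il1bKO, 0 for Il1r1KO, the latter with 725 genes at an unadjusted p under 0.05) the counts were 0 for Il1bKO with the groups alone, 0 and 5 in voom, 51 and 22 in DESeq2, and 0 and 32 without VF_4w 6, Il1bKO_4w 5 and Il1r1KO_4w 5. Between mutants (19 for Il1bKO against VF, 23 for Il1r1KO against VF, 24 between the knockouts) DESeq2 gave 100, 146 and 166, and Il1r1KO against VF gave 39 with the groups alone, 321 in voom and 296 without the 3 libraries. With each library left out in turn, counts were 1 to 6 and 4 to 12 for Il1bKO and Il1r1KO against WT, 1305 to 2299 between weeks, 0 to 22 and 0 to 2 for the steps by week, and 13 to 63, 15 to 117 and 23 to 124 between mutants. The highest counts came without WT_2w 4 (12), VF_4w 6 (117) and Il1bKO_4w 6 (22, 63 and 124), and the lowest against WT without Il1bKO_2w 2 (1) and WT_2w 2 (4). Chrnb1 between weeks was called in every fit with 1 library left out, with adjusted p of 0.000226 to 0.00944 (edgeR).

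Sign changes by setting were these, as log2. For the week difference Lrmda was −0.0012 with RLE factors, −0.44 in voom, −0.0013 in DESeq2 and −0.41 without the 3 libraries. In voom Fam49a was 0.045 in Il1bKO against WT, Armc7 −0.023 and Ermard 0.013 in Il1r1KO against WT, and Strap −0.10 and Lrmda 1.30 in the Il1r1KO step by week. Without WT_2w 3 and 4, Treml2 was −0.095, −0.063 and −0.061 in VF, Il1bKO and Il1r1KO against WT, Armc7 −0.028 and −0.048 in Il1bKO and Il1r1KO, and Ermard 0.030 in Il1r1KO. Without the 3 libraries Strap was 0.058 and −0.038 in the Il1bKO and Il1r1KO steps by week, and Lrmda 0.60 in the latter. Ranges that crossed 0 with 1 library left out were −0.21 to 0.10 (Fam49a) and −0.053 to 0.10 (Treml2) in VF against WT. In Il1bKO against WT they were −0.039 to 0.14 (Armc7), −0.13 to 0.18 (Fam49a) and −0.020 to 0.13 (Treml2), and in Il1r1KO against WT −0.060 to 0.12 (Armc7), −0.072 to 0.044 (Ermard) and −0.019 to 0.13 (Treml2). In the Il1r1KO step by week they were −0.32 to 0.094 (Armc7), −0.13 to 0.12 (Strap) and −0.60 to 0.70 (Lrmda), in the week difference −0.27 to 0.16 (Lrmda), and in Il1bKO against VF −0.017 to 0.63 (Lrmda). Lrmda rested on 15 to 433 reads a library.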

Other observations

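The human JAK2 sequence of exons 13 to 25, part of the mutant construct, was counted at 81.6 to 115 CPM in Il1r1KO, 45.0 to 99.7 CPM in Il1bKO and 39.1 to 60.8 CPM in VF, against 0 to 0.182 CPM in WT. The pEGFP sequence was likewise higher in Il1r1KO, at 868 to 1473 CPM, than in VF (462 to 541 CPM) or Il1bKO (385 to 529.5 CPM). The groups that differ in Lrmda, Fam49a, Strap and Chrnb1 thus also differ in the counts of the constructs, and their part in these genes was not tested.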
